A study of Mus musculus with 40 samples.

Results

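The genes described here are 10 transcripts that mark microglia, the resident macrophages of the brain. They were taken from the deposited expression table of mouse nucleus accumbens by matching 10 listed symbols exactly, and all 10 were found among its 23322 gene names. They are Cx3cr1, P2ry12, Tmem119, Trem2, Tyrobp, C1qa, C1qb, C1qc, Csf1r and Cd68. The rule uses the names only and no measured value, but the 10 genes were chosen with earlier results of these data known.

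Microglia survive only while the receptor CSF1R is stimulated by its ligands CSF1 and IL-34. They sense neurons through CX3CR1, the receptor for the neuronal chemokine fractalkine, and sense extracellular ADP through P2RY12. TREM2 is a lipid-sensing surface receptor that signals through the adaptor TYROBP (also called DAP12), and the 3 C1q chains together form C1q, the recognition molecule of the classical complement pathway, which can tag synapses for removal. TMEM119 is a membrane protein used to tell microglia from blood-derived macrophages, and CD68 is a lysosomal glycoprotein of phagocytic cells.

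RNA came from left and right punches of the nucleus accumbens, a ventral striatal region that mediates reward, of 40 C57BL/6J mice, with 1 library per mouse in 8 groups of 5. Intact males, intact females, ovariectomized females given placebo and ovariectomized females given estradiol each received saline or cocaine. The daily cocaine dose was 10 mg/kg on days 1 and 7 of treatment and 20 mg/kg from day 2 until day 6, all mice were handled for 3 days beforehand, and tissue was taken after a withdrawal whose length is not given in the sources used here. The ages of the mice and the estradiol dose are not given there either, and no intact animal is described as having had sham surgery. All intact mice carry numbers from 61 to 80 and all ovariectomized mice numbers from 121 to 140, so that ovariectomy and any difference between these number series cannot be told apart.

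The values were taken as TPM, transcripts per 1000000, because each column sums to that total. TPM is by definition corrected for transcript length, but the total does not show whether these values were. Levels of different genes are compared under that assumption. The table keeps no read counts, so the depth behind each value is unknown. Correlation with the other libraries (median over pairs, log2 scale) ran from 0.892 to 0.968 and was under 0.93 in 4 libraries, namely number 67 (male, cocaine), number 137 (ovariectomized, placebo, saline) and numbers 126 and 134 (ovariectomized, estradiol, cocaine). In these 4 libraries 84 ribosomal protein genes, which have short transcripts, held 25.1%, 19.5%, 31.6% and 23.1% of all TPM, against a median of 9.74% over the 40 libraries. The library labelled male cocaine 69 has a code that ends in MS, as the male saline codes do, in its description and its column name. Its Xist level was 237 TPM, against 0.138 to 8.02 TPM in the other 9 libraries labelled male and 40.4 to 308 TPM in the 30 libraries labelled female. Its level of the Y-linked Ddx3y was 0.318 TPM, against 13.5 to 53.4 TPM and 0 to 3.46 TPM in the same sets. Both levels are those of the libraries labelled female, and the library was kept under its label. Leaving this library out left the count of microglia genes passing the test at the same value in each comparison.

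The promoter sequences of 3 genes whose levels moved together across libraries, Trem2, C1qb and C1qc, are shown because macrophage genes are known targets of the factor PU.1, whose core binding motif is GAGGAA, or TTCCTC when read on the other strand. RefSeq (GRCm38.p6) holds a promoter entry for 6 of the 10 genes, and each sequence is the stretch before the RefSeq start that lies outside annotated exons, up to 250 bases, 5′ to 3′ on the gene's strand. Capitals mark the motif on either strand.
Trem2, chr17:48346151-48346400, plus strand: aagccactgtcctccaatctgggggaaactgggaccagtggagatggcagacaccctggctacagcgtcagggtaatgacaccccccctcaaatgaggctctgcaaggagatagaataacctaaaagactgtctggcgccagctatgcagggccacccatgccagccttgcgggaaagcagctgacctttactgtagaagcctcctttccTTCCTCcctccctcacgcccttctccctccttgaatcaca
C1qb, chr4:136886201-136886450, minus strand: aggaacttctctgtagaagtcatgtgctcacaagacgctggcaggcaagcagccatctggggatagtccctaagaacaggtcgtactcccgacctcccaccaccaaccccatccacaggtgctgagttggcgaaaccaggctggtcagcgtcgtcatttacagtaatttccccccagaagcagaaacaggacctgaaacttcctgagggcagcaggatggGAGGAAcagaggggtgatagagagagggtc
C1qc, chr4:136893066-136893164, minus strand: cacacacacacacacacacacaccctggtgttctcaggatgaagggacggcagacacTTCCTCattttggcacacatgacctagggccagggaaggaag
The motif occurred 1 time in each of these, and 1 time in the 250 bases before Cd68 (chr11:69666171-69666420). It did not occur in the 250 bases before Cx3cr1 or P2ry12, and 23.3% of all 32851 promoter windows of this length hold it, so that a match is common and describes letters only. Csf1r, Tyrobp, Tmem119 and C1qa have no entry in the table used.

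The mouse genes lie on 8 chromosomes (mm10, with gene spans from GENCODE M21, 1-based). C1qa (chr4:136895917-136898803), C1qc (chr4:136889804-136893065) and C1qb (chr4:136880129-136886187) are neighbours on the minus strand of chromosome 4. Trem2 is at chr17:48346401-48354147 and Tyrobp at chr7:30413760-30417585, both on the plus strand, and Csf1r is at chr18:61100598-61132149, also on the plus strand. Cx3cr1 (chr9:119901616-120069879), P2ry12 (chr3:59216272-59262871), Tmem119 (chr5:113793729-113800516) and Cd68 (chr11:69664213-69666153) are on the minus strand. P2ry12 lies inside Med12l and Csf1r overlaps Hmgxb3, each on the opposite strand. The annotated span of Cx3cr1 overlaps Gorasp1, Csrnp1 and Xirp1 on its own strand and Wdr48 and Ttc21a on the opposite strand. Whether the authors' counting used strand is not given in the sources used here, so reads of these overlapping genes could be shared.

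All 10 genes were measured above 0 in all 40 libraries and passed the filter of at least 1 TPM in at least 5 libraries, which 15196 genes passed. The C1q chains and Tyrobp had the highest levels. C1qb averaged 146 ± 62.2 TPM (SD, n = 40), Tyrobp 146 ± 78.7, C1qa 134 ± 43.5 and C1qc 124 ± 41.7. Csf1r averaged 63.7 ± 20.4 TPM, P2ry12 54.1 ± 13.7, Cx3cr1 39.0 ± 11.9 and Trem2 36.9 ± 14.1. Tmem119 (28.5 ± 6.85 TPM) and Cd68 (18.6 ± 3.56 TPM) were the lowest. Neighbours in this order differed by less than the larger of their SDs, except for the steps from C1qc to Csf1r, from P2ry12 to Cx3cr1 and from Tmem119 to Cd68. The 10 genes summed to between 543 and 1516 TPM per library, with a median of 751.

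Transcripts of border macrophages, the macrophages of the meninges and vessels that share Csf1r, Tyrobp and C1q with microglia, were low in the same libraries. Over 10 such genes the sum ranged from 6.88 to 33.1 TPM with a median of 15.8. Of the best known, Mrc1 averaged 1.53 TPM, Pf4 2.94 TPM and Lyve1 0.463 TPM, and none of the 10 was at 0 in all libraries. The lowest mean among the 10 microglia genes was 18.6 TPM (Cd68), and the highest in the border macrophage list was 4.29 TPM (Stab1). The part of each cell type in the shared transcripts was not tested. In a punch of whole tissue, fewer microglia and less RNA per microglial cell cannot be told apart.

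**Figure D1:**
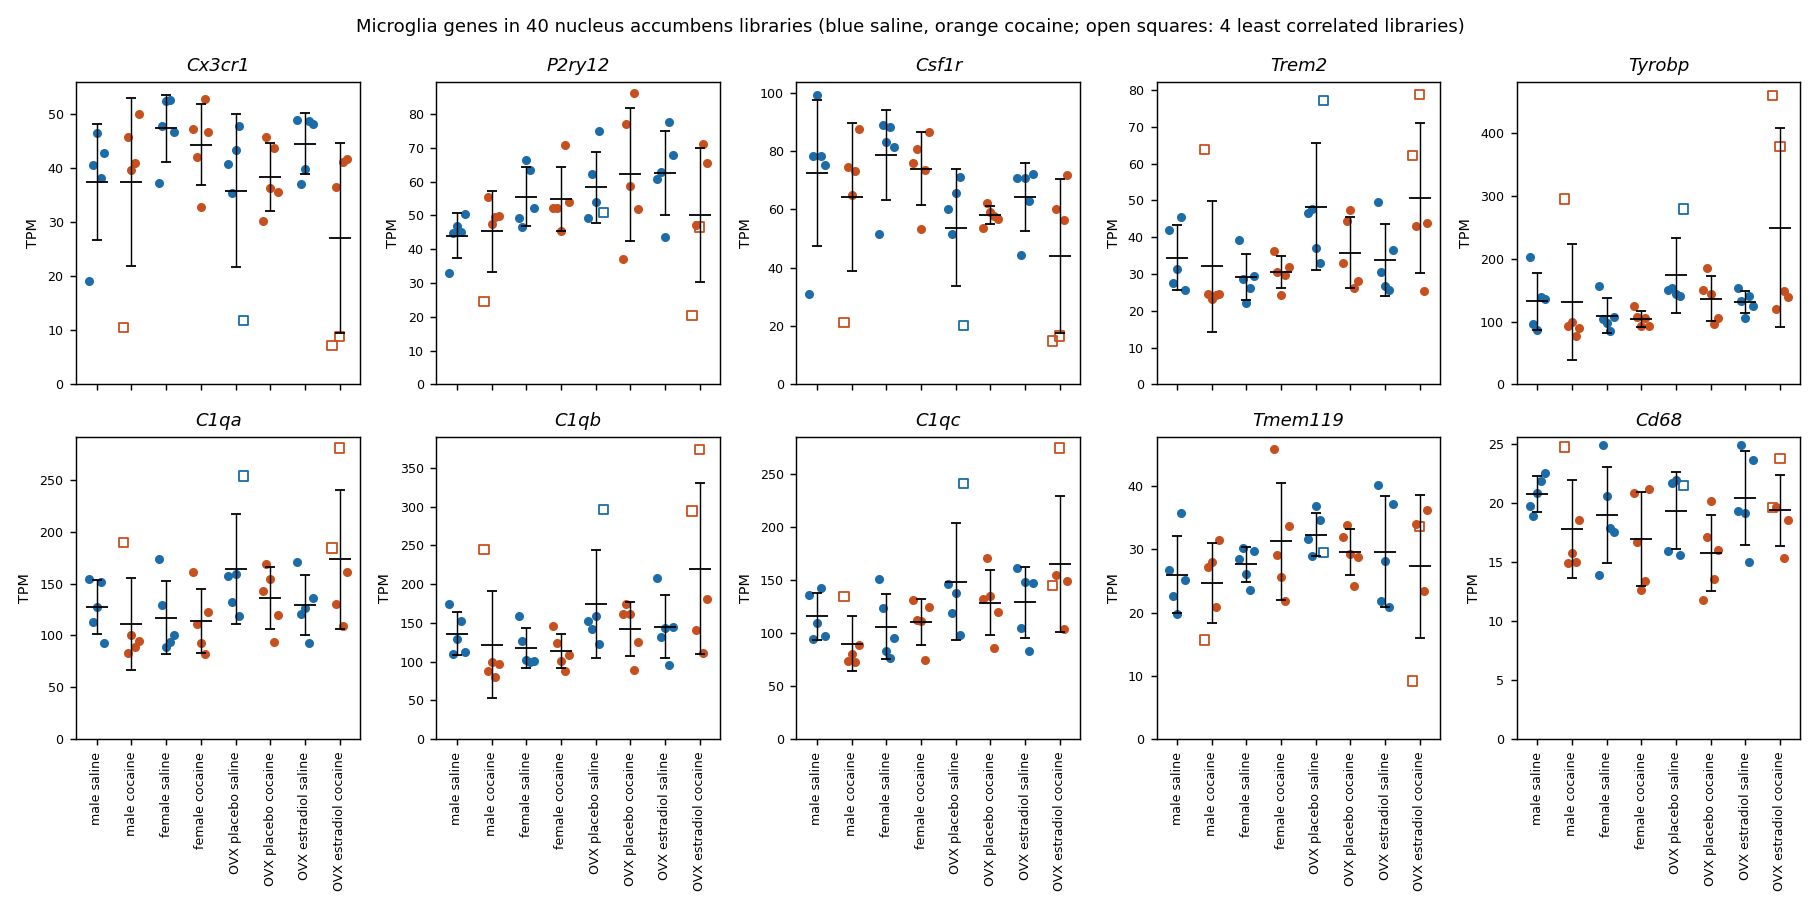
Levels of the 10 microglia genes (vertical axes, TPM) in each of 40 libraries, by group, with saline in blue and cocaine in orange; bars give the group mean ± SD (n = 5). Open squares mark the 4 libraries that correlate least with the rest: they lie lowest for Cx3cr1 and Csf1r and highest in their groups for Trem2, Tyrobp and C1qb.

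Cocaine against saline was compared within each of the 4 hormonal conditions, with limma's moderated test on log2(TPM + 0.5) over all 15196 genes and Benjamini-Hochberg adjustment. None of the 10 microglia genes passed an adjusted p of 0.05 in any of these 4 comparisons or in their average. The share of all genes passing was 0% in each. At an unadjusted p under 0.05, no microglia gene passed in males, in intact females or in ovariectomized placebo females, against 1.02%, 0.954% and 0.823% of all genes. In ovariectomized estradiol females 3 of the 10 passed unadjusted, against 41.7% of all genes.

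In intact females the receptor genes were nearly level between the treatments. Cx3cr1 was 37.3, 47.7, 52.4, 52.5 and 46.7 TPM in the saline females 64, 65, 66, 77 and 78, and 47.3, 42.0, 32.8, 52.9 and 46.7 TPM in the cocaine females 70, 71, 72, 79 and 80. The ranges of the treatments overlap almost fully, and the log2 difference was -0.10 ± 0.40 (SE). Over the 10 genes the median log2 difference in intact females was -0.04, against 0.03 over all genes. C1qb, the chain with the highest mean, was 117 ± 25.7 TPM after saline and 113 ± 22.1 after cocaine (SD, n = 5 each).

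In males the median over the 10 genes was -0.21, against -0.03 over all genes, and 1 of the 10 was above 0, as were 44.5% of all genes. C1qb was 175, 109.7, 129.7, 153 and 112 TPM in the saline males 61, 62, 63, 73 and 74. It was 244, 87.9, 99.3, 80.5 and 96.8 TPM in the libraries labelled male cocaine 67, 68, 69, 75 and 76. Male cocaine 67 was above every other library labelled male and the other 4 cocaine libraries were below every saline male, so the ranges overlap through 1 library. Without the library labelled male cocaine 69 the log2 differences lay between -0.35 (C1qc) and -0.03 (P2ry12), against -0.38 and 0.00 with it. With the 4 poorly correlated libraries left out, which removes only number 67 from this comparison, C1qb was -0.55 ± 0.20 and Tyrobp -0.49 ± 0.19 on the log2 scale. C1qc was then -0.54 ± 0.21, C1qa -0.46 ± 0.20, Trem2 -0.47 ± 0.21 and Cd68 -0.36 ± 0.18. These 6 had unadjusted p-values from limma between 0.0084 and 0.0486, each with an adjusted p of 0.314, in a comparison where 15.6% of all genes had an unadjusted p under 0.05 and none passed adjusted. Cx3cr1 (0.29 ± 0.18) and Csf1r (0.14 ± 0.21) were on the other side of 0 there. The ribosomal protein share was 7.61% to 8.19% in these 4 libraries labelled male cocaine and 7.68% to 17.9% in the 5 saline males, and its part in the difference was not tested. Number 69 is among these 4, and the differences without both 67 and 69 are not reported here.

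In ovariectomized placebo females the median over the 10 genes was -0.21 against 0.15 over all genes. Trem2, the lipid-sensing receptor, was 46.7, 47.6, 37.2, 32.9 and 77.2 TPM in the saline mice 121, 123, 129, 131 and 137, and 33.1, 44.5, 47.3, 26.2 and 28.2 TPM in the cocaine mice 125, 127, 133, 135 and 139. The groups overlap, and the log2 difference was -0.40 ± 0.28.

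In ovariectomized estradiol females the cocaine mice were spread widely. Cx3cr1 was 48.9, 37.0, 39.9, 48.7 and 48.1 TPM in the saline mice 122, 124, 130, 132 and 138, and 7.20, 36.5, 8.92, 41.1 and 41.7 TPM in the cocaine mice 126, 128, 134, 136 and 140. Libraries 126 and 134 were far below the other cocaine mice, and the remaining 3 lay within or just under the saline range. The log2 difference was -1.05 ± 0.40 (limma, adjusted p = 0.0946), and without the 4 poorly correlated libraries it was -0.15 ± 0.20. Tyrobp went the other way, with 459 and 378 TPM in libraries 126 and 134, 120.1, 148 and 139 TPM in the other 3 cocaine mice, and 106 to 154 TPM after saline. Its log2 difference was 0.70 ± 0.32 (adjusted p = 0.101, limma), and 0.05 ± 0.21 without the 4 libraries. Csf1r differed by -0.80 ± 0.37 (adjusted p = 0.105, limma), and by -0.02 ± 0.23 without them.

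Averaged over the 4 conditions, the log2 differences between cocaine and saline lay between -0.26 (Cx3cr1) and 0.04 (Tyrobp), with a median of -0.06 against -0.10 over all genes, of which 1.1% had an unadjusted p under 0.05. Their 95% intervals reached from -0.66 to 0.36. Cd68, the lysosomal glycoprotein, had the smallest p of the 10 (-0.19 ± 0.10, unadjusted p = 0.0667, limma, adjusted p = 0.899). Its group means were 20.7, 18.9, 19.3 and 20.4 TPM after saline and 17.8, 16.9, 15.7 and 19.3 TPM after cocaine, in males, intact females, placebo females and estradiol females. The cocaine mean was lower in 4 of 4 conditions, within the spread of the groups. In the average 17.9% of all genes were above 0, so lower after cocaine was the usual direction. The share of all genes lower in 4 of 4 conditions is not reported here.

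Whether the response to cocaine differed between sexes or with estradiol was tested by interaction terms. No microglia gene passed for females against males (limma, adjusted p = 1.00 for each, 0% of all genes passing and 0.665% at an unadjusted p under 0.05). For estradiol against placebo none passed either, with 0% of all genes passing and 31.3% at an unadjusted p under 0.05. Cx3cr1 (-1.27 ± 0.56), Trem2 (0.92 ± 0.39) and Tyrobp (1.04 ± 0.45) had unadjusted p-values of 0.0283, 0.0242 and 0.0260 and an adjusted p of 0.156 each. Without the 4 libraries the same terms were -0.02 ± 0.27, 0.37 ± 0.30 and 0.20 ± 0.28.

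Intact females and intact males did not differ beyond the test's threshold in any of the 10 genes, after saline or after cocaine. In each comparison 0.0329% of all genes passed, and no microglia gene had an unadjusted p under 0.05 (1.41% of all genes after saline and 1.36% after cocaine). After saline, Cx3cr1 averaged 47.4 ± 6.20 TPM in females and 37.4 ± 10.7 in males, and P2ry12 55.6 ± 8.85 and 44.1 ± 6.60 (SD, n = 5 each). The log2 difference of Cx3cr1 was 0.39 (95% interval -0.41 to 1.19) and that of P2ry12 0.33 (-0.19 to 0.85), both with an adjusted p of 0.996 from limma. The C1q chains and Tyrobp lay between -0.15 and -0.23. After cocaine the difference of Cx3cr1 was 0.40, and 0.46 without the library labelled male cocaine 69, and that of Tyrobp was -0.13, and -0.17 without it.

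Estradiol against placebo in ovariectomized females gave no call after saline or after cocaine, and 0% of all genes passed in each. After saline no microglia gene had an unadjusted p under 0.05 (2.48% of all genes), and the 10 genes had a median log2 difference of -0.17, against 0.23 over all genes. Tmem119 was 31.6, 28.9, 36.8, 34.7 and 29.5 TPM with placebo and 40.1, 21.9, 28.1, 20.9 and 37.2 TPM with estradiol, so that the estradiol mice lay on either side of the placebo range. After cocaine, Cx3cr1 (-0.83 ± 0.40) and Tyrobp (0.68 ± 0.32) had unadjusted p-values of 0.0421 and 0.0385, as 15.7% of all genes did at that level, and an adjusted p of 0.244 each from limma.

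Ovariectomized females were set against intact females within each drug treatment. With placebo after saline, 8 of the 10 genes had a difference above 0, as did 22.2% of all genes, with a median log2 difference of 0.34 against -0.37 over all genes. None passed the adjusted test, nor did any other gene (0%). Trem2 had the smallest p (0.68 ± 0.28, unadjusted p = 0.0195, adjusted p = 0.247, limma), and 19.3% of all genes had an unadjusted p under 0.05. Without the 4 libraries Trem2 stood at 0.50 ± 0.21 and Tyrobp at 0.45 ± 0.19, with an adjusted p of 0.2 each, again with no gene of the table passing. Tyrobp was 149.9, 153.6, 143, 141 and 279 TPM in the ovariectomized placebo mice and 156, 103, 97.3, 84.2 and 107 TPM in the intact females, which overlap through intact female 64. That female had a ribosomal protein share of 13.8%, against 7.60% to 8.04% in the other 4, and the placebo mice had 9.77% to 19.5%.

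With placebo after cocaine, 6 of the 10 genes were above 0, against 23.5% of all genes, with medians of 0.16 and -0.24. No gene passed adjusted (0%, limma), no microglia gene had an unadjusted p under 0.05, and 5.63% of all genes had. With estradiol after saline, 8 of the 10 genes were above 0, against 34.7% of all genes, with medians of 0.16 and -0.11, and again none passed (0% adjusted, limma, and 4.09% of all genes at an unadjusted p under 0.05, with no microglia gene among them). Tyrobp was 0.35 ± 0.32 in the first of these comparisons and 0.28 ± 0.32 in the second, and Csf1r -0.33 ± 0.37 and -0.29 ± 0.37.

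The comparison of ovariectomized estradiol with intact females after cocaine was the only one in which microglia genes passed the test. Tyrobp and C1qb were higher and Cx3cr1 and Csf1r were lower in the ovariectomized estradiol mice, so 4 of 10 passed, while 55.5% of all 15196 genes did (63.5% at an unadjusted p under 0.05). Of all genes 3.91% passed as higher and 51.6% as lower. The median log2 difference was 0.37 over the 10 genes and -0.74 over all genes, and 6 of the 10 were above 0, as were 15% of all genes.

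Tyrobp, the signalling adaptor, was 124, 107, 93.03, 105 and 93.4 TPM in the intact females 70, 71, 72, 79 and 80. It was 459, 120.1, 378, 148 and 139 TPM in the ovariectomized estradiol mice 126, 128, 134, 136 and 140. Libraries 126 and 134 were over 3 times the highest intact female, while number 128 lay just within the intact range. The log2 difference was 1.03 ± 0.32 (SE; limma, adjusted p = 0.0152).

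C1qb, 1 of the 3 chains of the complement recognition molecule, was 145, 123, 100.2, 88.3 and 109 TPM in the intact females and 294, 141, 374, 111 and 181 TPM in the ovariectomized estradiol mice. Here 3 of the 5 estradiol mice were above every intact female. The log2 difference was 0.83 ± 0.29 (adjusted p = 0.0206, limma). C1qa (0.57 ± 0.26), C1qc (0.53 ± 0.25) and Trem2 (0.64 ± 0.28) lay in the same direction with adjusted p-values of 0.0566, 0.0703 and 0.0502 from limma and did not pass.

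Csf1r, the receptor on which microglial survival depends, was 75.9, 80.6, 53.2, 73.7 and 86.5 TPM in the intact females and 14.9, 60.1, 16.6, 56.3 and 71.7 TPM in the ovariectomized estradiol mice. Its log2 difference was -1.01 ± 0.37 (adjusted p = 0.0255, limma). Cx3cr1, the fractalkine receptor, differed by -1.04 ± 0.40 (adjusted p = 0.0291, limma) from the values given above. For both receptors, libraries 126 and 134 were far below every intact female and the other 3 overlapped the intact range. P2ry12 (-0.23 ± 0.26), Tmem119 (-0.29 ± 0.26) and Cd68 (0.20 ± 0.20) did not pass.

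Without 126 none of the 10 genes passed, with Tyrobp at 0.75 and Cx3cr1 at -0.66, and without 134 none did, with 0.82 and -0.74. Some calls were lost with nearly the same difference, as for Cx3cr1 (-1.01) and Csf1r (-0.95) without intact female 80, and for Cx3cr1 (-0.97) without intact female 79. With only these 2 groups in the fit the 4 differences were the same and none passed (adjusted p from 0.0677 to 0.0943, limma). Without the 4 poorly correlated libraries no gene of 15161 passed, with 16.7% at an unadjusted p under 0.05. The log2 differences were then 0.38 ± 0.21 for Tyrobp, 0.34 ± 0.22 for C1qb, -0.23 ± 0.23 for Csf1r and -0.14 ± 0.20 for Cx3cr1. With the ribosomal protein share as a covariate Tyrobp, C1qb, Csf1r and Cx3cr1 stood at 0.03, 0.04, 0.15 and 0.18, and none passed. Both receptors changed sign, but the standard errors are not reported here, so a reversal cannot be told from no difference. No microglia gene had groups that did not overlap in this comparison, where 17.6% of all genes had.

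**Figure D2:**
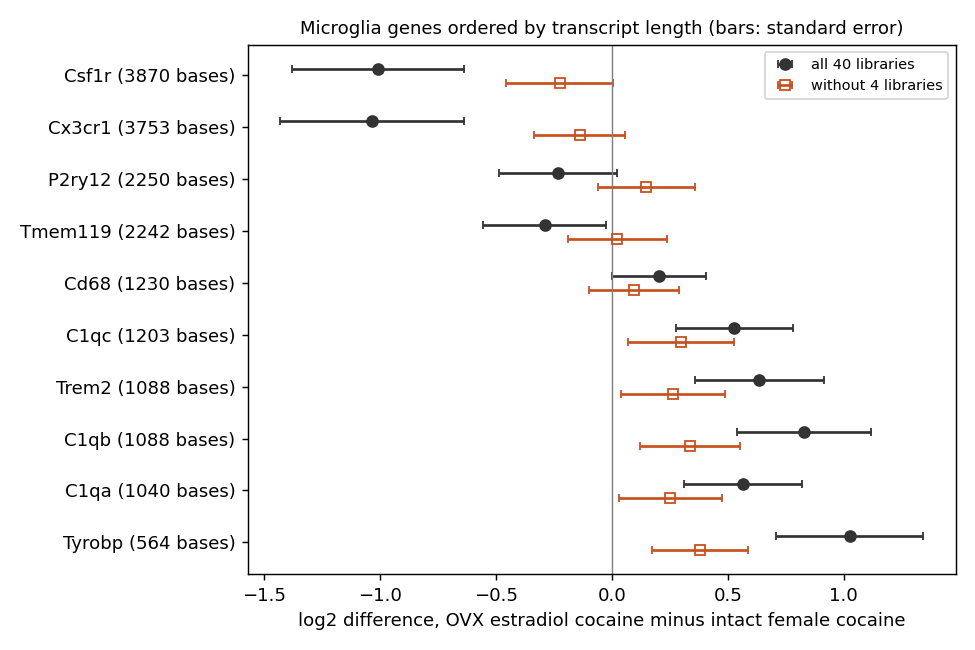
Log2 difference (horizontal axis, ovariectomized estradiol cocaine minus intact female cocaine) of the 10 microglia genes, ordered by transcript length in bases, with bars for the standard error. Filled circles use all 40 libraries and open squares leave out the 4 least correlated: the short Tyrobp is at 1.03 and the long Csf1r at -1.01, and without the 4 libraries they are at 0.38 and -0.23.

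The direction of the 10 genes followed the length of their transcripts. Tyrobp (564 bases), C1qa (1040), Trem2 and C1qb (1088 each), C1qc (1203) and Cd68 (1230) are in the shortest of 5 equal classes of transcript length, and all 6 had differences above 0. Tmem119 (2242) and P2ry12 (2250) are in class 2, and Cx3cr1 (3753) and Csf1r (3870) in class 4, and all 4 had differences below 0. Across the 14213 tested genes with an annotated length, which are not independent replicates, the class medians of the log2 difference were 0.05, -0.51, -0.76, -0.95 and -1.14 from the shortest class to the longest. Without the 4 libraries the same medians were 0.11, -0.06, -0.17, -0.27 and -0.45. Tmem119 (0.02) and P2ry12 (0.15) were then above 0. Spearman's rho between length and difference was -0.68 over these genes, and -0.53 without the 4 libraries, and it was -0.94 over the 10 microglia genes.

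The same ordering ran through the 40 libraries. The level of each gene was set against the ribosomal protein share of the library, on log2 scales, with permutation p-values over 22 relations adjusted together. Libraries were permuted across the 8 groups and not within them, so differences between groups are part of these relations. Tyrobp followed the share with Pearson's r = 0.95 and Spearman's rho = 0.90, and C1qb (0.86 and 0.82), Trem2 (0.84 and 0.76), C1qa (0.79 and 0.79) and C1qc (0.66 and 0.70) did likewise. Csf1r (-0.92 and -0.80) and Cx3cr1 (-0.89 and -0.70) ran against it. These 7 had an adjusted permutation p of 1.37e-05 for r, where 1e-05 is the smallest raw value that 100000 resamples can give. The same relation was not computed over all tested genes, so the count of 7 has no background. The ribosomal protein genes are also part of the same fixed total as every other gene. Without the 2 libraries farthest from the median share, r stayed between 0.76 and 0.92 for the 5 positive genes and was -0.87 for Csf1r and -0.81 for Cx3cr1. Without the 4 poorly correlated libraries it was 0.87 for Tyrobp and -0.78 for Csf1r.

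The remaining 3 genes had smaller r. P2ry12 had r = -0.53 and rho = -0.24, with r = -0.84 in the intact and -0.63 in the ovariectomized mice. Without the 2 farthest libraries r was -0.16 and without the 4 poorly correlated ones -0.09, so its relation rests on those libraries. Tmem119 (r = -0.33, rho = 0.15, and r = 0.24 without the 2 farthest) and Cd68 (r = 0.32, rho = 0.30, and 0.26) had adjusted permutation p-values for r of 0.0483 and 0.0511. In Tmem119 the sign turned when those 2 libraries were left out.

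The ratio of Cx3cr1 to Tyrobp within a library shows this most plainly. On the log2 scale it ran from -0.68 in intact female saline 77 to -5.99 in ovariectomized estradiol cocaine 126. It was lowest in 5 libraries, numbers 61 (male saline, -3.40), 67 (male cocaine, -4.80), 137 (ovariectomized placebo saline, -4.56), 126 (-5.99) and 134 (-5.41). Its r with the ribosomal protein share was -0.95, with -0.97 in the 20 intact mice, -0.96 in the 20 ovariectomized mice and -0.91 without the 4 libraries (adjusted permutation p = 2e-05). The 5 libraries come from 4 groups of both treatments, and the next lowest library was at -2.30. The ratio of these markers of 1 cell type therefore differed by more than 30-fold between libraries of the same region, and the ribosomal protein share moved with it. The part of RNA quality or library preparation in this was not tested.

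**Figure D3:**
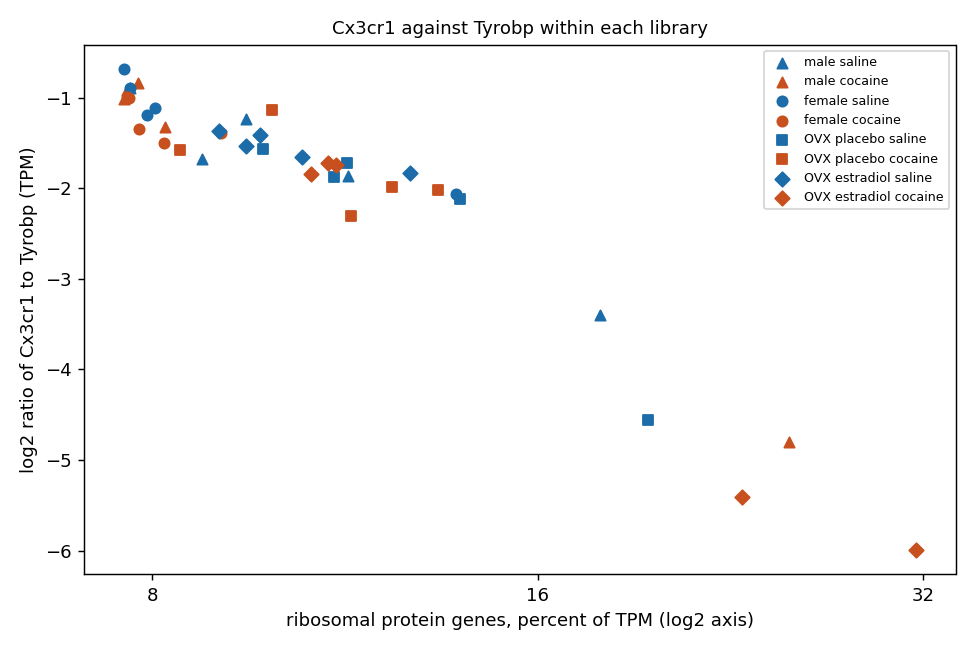
Log2 ratio of Cx3cr1 to Tyrobp (vertical axis) against the percentage of TPM in 84 ribosomal protein genes (horizontal, log2 axis) in 40 libraries, with symbols for hormonal condition and colours for saline (blue) and cocaine (orange). The ratio falls from about -0.68 at 7.60% to -5.99 at 31.6%, in saline and cocaine libraries alike.

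Pairs of the 10 genes were compared over the 40 libraries (45 pairs, permutation tests adjusted together). Libraries were again permuted across the groups, so differences between groups are part of these correlations. C1qa and C1qb followed each other with r = 0.96, rho = 0.95 and an SD of their log2 ratio of 0.16, and with r = 0.95 without the 4 poorly correlated libraries. Cx3cr1 and Csf1r had r = 0.96 and rho = 0.78, with 0.81 without the 4 libraries. Trem2 and C1qb had r = 0.93 and rho = 0.88, with 0.85 without them, and Trem2 with its own adaptor Tyrobp had r = 0.85 and rho = 0.78, with 0.71 without them. All of these had an adjusted permutation p of 2.37e-05.

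Pairs of other genes were not tested, so the counts of pairs given here have no background. In 34 pairs the adjusted p was under 0.05, of which 20 were positive and 14 negative. Without the 4 libraries 17 pairs were positive and 2 negative under that threshold. Of the 17, 12 were among the 20, and the other 5 were Tmem119 with Trem2, Tyrobp and the C1q chains. The 14 negative pairs each joined Cx3cr1, Csf1r or P2ry12 with Trem2, Tyrobp or a C1q chain. Cx3cr1 and Tyrobp had r = -0.86 and rho = -0.51, and r = -0.44 without the 4 libraries. Tyrobp and Csf1r had r = -0.89 and rho = -0.71, and -0.62 without them.

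After each gene was regressed on the ribosomal protein share, 40 of the 45 pairs had an r above 0. This is given as a description, without a background from pairs of other genes. The C1q chains stayed close (0.89 for C1qa with C1qb, 0.89 for C1qa with C1qc and 0.86 for C1qb with C1qc), as did Cx3cr1 with Csf1r (0.78). Tmem119, which had r between 0.00 and 0.31 with the C1q chains before, had 0.74 with C1qa, 0.61 with C1qb and 0.75 with C1qc after. Cx3cr1 with Tyrobp was at -0.07 and Tyrobp with Csf1r at -0.12, while Csf1r was at 0.29 with C1qa and 0.26 with Trem2.

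**Figure D4:**
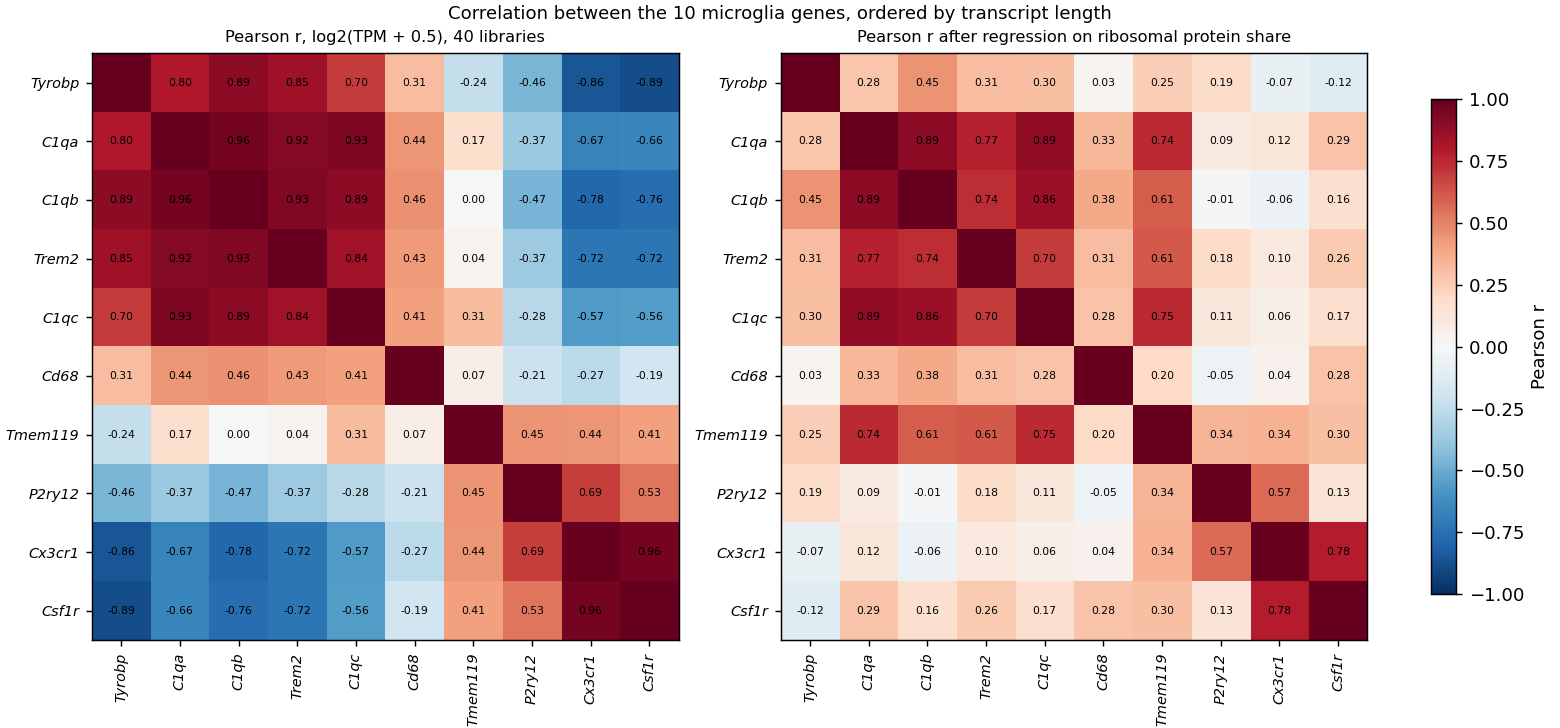
Pearson's r between the 10 microglia genes over 40 libraries (colour scale from -1 to 1, genes ordered from the shortest to the longest transcript on both axes), as measured on the left and after regression on the ribosomal protein share on the right. The block between Cx3cr1, Csf1r or P2ry12 and the short transcripts of Trem2, Tyrobp and C1q is negative on the left, such as -0.86 for Cx3cr1 with Tyrobp. On the right it runs from -0.12 (Csf1r with Tyrobp) to 0.29 (Csf1r with C1qa), while the C1q chains keep r of 0.86 to 0.89.

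Each gene was also set against the mean of the 10, after the median of each library and the mean of each group were removed. C1qa (r = 0.98), Trem2 (0.98), C1qb (0.98), C1qc (0.97), Tyrobp (0.93) and Cd68 (0.92) followed that mean, of which they are a part. Tmem119 had 0.77, P2ry12 0.49, Csf1r -0.44 and Cx3cr1 -0.55. Without the 4 poorly correlated libraries Tmem119 had 0.84, P2ry12 0.33, Csf1r -0.07 and Cx3cr1 -0.09. The same library median, from 2.66 to 4.57 on the log2 scale, was subtracted from every gene, which by itself can make genes move together. The 10 other genes most like the mean over the 40 libraries were Dtnbp1 (0.97), Ap1s1, Gpx1, Mrpl28, Ccdc107, Etfb, Otub1, Ptpmt1, Hras1 and Phb (0.96). None of them is in any microglial, myeloid or other list used here. Their levels were between 66.8 TPM (Ptpmt1) and 595 TPM (Ap1s1). Of the 9 with an annotated length, Otub1 (1713 bases), Phb (1799) and Ptpmt1 (3183) were outside the shortest length class and the others in it. That class ends at 1630 bases and holds 2843 of 14213 genes.

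Other genes of microglia and of the pathways of these 10 were taken from fixed lists. In each comparison other than ovariectomized estradiol against intact females after cocaine, no gene of any of the 14 lists passed the adjusted test between 2 groups. In the joint test over the 8 groups, 3 endothelial genes passed (Flt1, Tek and Ly6c1), where 34 genes or 0.224% of all did. None of the 10 microglia genes passed that test. Tyrobp was the nearest with F = 2.40 (limma, unadjusted p = 0.0385, adjusted p = 0.196), and 23.9% of all genes had an unadjusted p under 0.05.

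After cocaine, between ovariectomized estradiol and intact females, 8 of 19 other homeostatic microglia genes passed, 7 lower and 1 higher, in a comparison where 55.5% of all genes passed, 51.6% lower and 3.91% higher. These shares over all genes are the background of each list count that follows, and no list was tested against them. The lower ones were P2ry13, an ADP receptor, Sall1, a transcription factor of microglial identity (-1.08 ± 0.37), Slco2b1, Tgfbr1, a TGF-beta receptor, Slc2a5, Golm1 and Entpd1, which breaks down ATP. Crybb1, with 882 bases, was higher (0.87 ± 0.31). The proteases Ctss (169 TPM on average) and Lgmn (115 TPM), among the most abundant of the list, were at -0.03 and -0.53 and did not pass. The list's median was -0.53 and, without the 4 libraries, -0.02.

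Of 19 pan-myeloid genes, Aif1, which encodes the microglial stain IBA1 (875 bases, 0.65 ± 0.28), and Ly86 (1134 bases, 0.73 ± 0.24) were higher. The integrin subunits Itgam and Itgb2, Laptm5 and Cd33 were among those lower. The most abundant of the list, Coro1a (87.5 TPM) and Fcer1g (46.2 TPM), did not pass, at 0.08 and -0.06. The median was -0.27, and 0.06 without the 4 libraries.

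Of 10 genes of TREM2 and TYROBP signalling, 5 were lower and none higher, beside 51.6% lower and 3.91% higher over all genes. These were Syk, the kinase that TYROBP recruits (-0.79 ± 0.28), the phosphatase Inpp5d, Pik3cg, and the proteases Adam10 and Adam17, which can shed TREM2. The TREM2 ligand Apoe, at 3519 TPM the most abundant of the list, was at 0.16 ± 0.20 and did not pass. Of 5 ligands, Csf1 (-1.01 ± 0.33), Cx3cl1, which encodes fractalkine (-0.88 ± 0.31), and Tgfb2 were lower, and Il34, the more abundant CSF1R ligand at 76.3 TPM, was at -0.36 ± 0.24 and did not pass. The list medians were -0.75 and -0.80, and -0.25 and -0.18 without the 4 libraries.

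Of 14 tested complement genes other than C1q, 5 were lower (C4a, Cfp, Cd46, Csmd1 and Masp1) and none was higher, beside 51.6% lower and 3.91% higher over all genes. C4b (11.99 TPM), among the most abundant of these 14, did not pass. C3, the central complement component, did not reach 1 TPM in enough libraries to be tested, with a highest level of 1.05 TPM. The list's median was -0.65, and -0.22 without the 4 libraries.

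Of 16 genes of disease-associated microglia, Cd63 (1063 bases, 0.63 ± 0.20) and Cd52 (1.22 on the log2 scale) were higher and Axl, Ctsb and Ank lower, with a median of -0.22, and 0.11 without the 4 libraries. The cathepsin Ctsd (435 TPM) and B2m (214 TPM), the most abundant besides Ctsb, did not pass. Of 11 inflammatory mediators Tlr2 alone passed, as lower (median -0.33, and 0.13 without the 4 libraries), and the most abundant, Il18 (56.1 TPM), Nfkbia (21.02 TPM) and Tlr7 (2.44 TPM), did not. The cytokines Il1b, Il6 and Tnf did not reach the filter, with highest levels of 1.02, 0.720 and 0.300 TPM.

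Markers of other cell types gave the following values in the same comparison, in which 51.6% of all genes passed as lower and 3.91% as higher. Border macrophage genes summed to 8.19 to 23.2 TPM in intact cocaine females and 9.93 to 24.7 TPM in ovariectomized estradiol cocaine mice, and 1 of 8 tested passed (Stab1, -1.03 ± 0.36), while Pf4 (1.04 ± 0.58) and Cbr2 (0.75 ± 0.47) did not. Blood cell genes summed to 92.0 to 174 TPM and 94.6 to 443 TPM, and 1 of 9 passed (Hbb-b1, a haemoglobin gene, higher by 1.25 on the log2 scale), while Hba-a1 (1.74 ± 0.86) and Hba-a2 (-1.52 ± 1.43) did not. In the blood list 4 of 17 genes were at 0 in all 5 intact cocaine females and 3 in all 5 estradiol cocaine mice. Of 8 endothelial genes 7 passed as lower (Cldn5, Pecam1, Flt1, Slco1a4, Cdh5, Tek and Ly6c1), Itm2a at 105 TPM did not, and the median was -1.51, and -1.09 without the 4 libraries. Astrocyte genes had 3 of 8 lower (Slc1a3, Slc1a2 and Gja1, median -0.74), with the most abundant, Aldoc (1011 TPM), not passing. Oligodendrocyte genes had Opalin higher, 1 of 8 in that direction (median -0.38), with Mbp (3588 TPM) and Cnp (461 TPM) not passing. Striatal projection neuron genes had Pde10a lower of 10 (median -0.28), with Penk (1800 TPM), Ppp1r1b (1313 TPM) and Tac1 (669 TPM) not passing. None of 6 cortical neuron genes passed (median -1.25), Slc17a7 (147 TPM), Tbr1 (15.3 TPM) and Neurod6 (10.6 TPM) included. The part of these cells in the differences of the microglia genes was not tested. Without the 4 libraries no gene of any list passed, as no gene of the table did.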

How the data were processed

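Nucleus accumbens RNA of 40 mice was measured in 8 groups of 5, taken from the sample titles. The authors deposited 1 table, named for FPKM, whose 40 columns each sum to 1000000, so the deposited values were taken as TPM. The column total does not by itself show that values were corrected for transcript length. Build mm10, Cuffdiff 2.2.0 and Cufflinks 2.2.0, the aligners TopHat2 2.0.9 and Bowtie2 2.1.0.0, limma and DESeq2 are named, without roles, per the submitters' processing notes. The labels name an AmpliSeq kit. TPM keeps no depth, so no counting interval is given.

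Of 23349 entries, 27 that a spreadsheet had turned into dates were left out, holding 0.0934% to 0.272% of each library. The 15196 genes that reached 1 TPM in 5 or more libraries were tested on log2(TPM + 0.5), where fold changes of low genes are understated, with limma 3.58.1 in R 4.3.3 (trend and robust options). A mean per group was fitted with 32 residual degrees of freedom, and p-values were adjusted over all tested genes by Benjamini-Hochberg. Each mouse is a separate animal. Fits were tested on simulated data. Lengths and gene spans are from GENCODE M21 and promoters from RefSeq.

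The 10 genes, the 14 companion lists and the 4 poorly correlated libraries were chosen with earlier results of these data known. The text names all 10 genes, the most abundant genes of each list and the list genes past the threshold, except some that are not reported here. No paired analysis was possible because the groups share no animal numbers. Alternatives changed the pseudocount, filter, scaling, options, covariates, groups fitted and libraries.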

Additional observations from a re-analysis of the deposited data

Results flagged for a closer look

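In each of the 8 groups of 5 and for each of the 10 genes, the highest or lowest library was compared with the others, which gives 80 groups of values. In 10 of these a library stood apart by the 95% limit for the gap to its neighbour over the range. Chance gives about 1 in 20.

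Male cocaine 67 accounts for 7 of the 10. Its Cx3cr1 was 10.6 TPM, with the other 4 libraries labelled male cocaine at 39.7 to 50.05 TPM, and its P2ry12 was 24.6 TPM against 47.3 to 55.3 TPM. Its Trem2 was 63.8 TPM against 23.1 to 24.6 TPM, and its Tyrobp was 295 TPM against 77.1 to 99.5 TPM. The C1q chains were high as well, with C1qa at 189.9 TPM against 82.7 to 101 TPM, C1qb at 244 TPM against 80.5 to 99.3 TPM, and C1qc at 135 TPM against 73.1 to 88.7 TPM.

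Ovariectomized placebo saline 137 had Tyrobp at 279 TPM against 141 to 153.6 TPM and C1qb at 296 TPM against 122 to 159 TPM. Intact female saline 64 had Csf1r at 51.7 TPM against 81.4 to 89.1 TPM. The ribosomal protein share was 25.1% in number 67, 19.5% in number 137 and 13.8% in number 64, each the highest of its group. Ovariectomized estradiol cocaine has 2 libraries of this kind, 126 and 134, which lie together and so do not stand apart from a nearest neighbour.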

How the results depend on the processing

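The median over the 10 genes stayed within the spread between libraries in 749 of 765 alternatives, counted over 15 comparisons. Many of these leave out 1 library, which cannot move the median of a comparison between other groups. The count is therefore no measure of stability. In ovariectomized estradiol against intact females after cocaine, 4 passed. This became 7 when libraries were centred on their median gene (which moves the median of all genes by 0.74), with Cx3cr1 at -0.22 and Csf1r at -0.19 no longer among them, and 0 with the ribosomal share as a covariate, without the 4 poorly correlated libraries, with only the compared groups fitted, or with the length correlation of each library as a covariate, a setting chosen after seeing the data. Leaving out 1 library at a time gave 0 to 7 (0 without 126 or 134, 2 without intact female 80, 7 without 136). Without intact female 79 Cx3cr1 (-0.97) did not pass. Cx3cr1 (0.18) and Csf1r (0.15) changed sign under the ribosomal share, and neither passed. Leaving out 1 library gave 0 to 5 for cocaine in ovariectomized estradiol females (1 without male cocaine 67, and 2, 5 and 3 without 128, 136 and 140) and 0 to 3 in the joint test over groups (3 without male cocaine 67). The shares of all genes passing under centring or without 1 library are not reported here, so these counts have no background. In the main fit 55.5% of all genes passed for estradiol against intact females after cocaine. For cocaine in estradiol females 0% passed (41.7% unadjusted), and 0.224% in the joint test.

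Under array weights, 6 passed for placebo against intact females after saline, 4 after cocaine, 2 for estradiol against intact after saline (C1qb and C1qc), 1 for females against males after cocaine (C1qc, 0.56 ± 0.11, adjusted p = 0.0138, limma) and 8 in the joint test. Of all 15196 genes, 6802, 6431, 2251, 14 and 9136 then passed. Array weights lowered the effect of the receptors to -0.02 (Cx3cr1) and -0.10 (Csf1r) in the estradiol comparison.

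Medians moved under centring to 0.74 (cocaine, estradiol females), -0.44 and 0.81 (estradiol against placebo, saline and cocaine), 0.78 and 0.47 (placebo against intact, saline and cocaine), 1.18 (estradiol against intact, cocaine) and 1.14 (estradiol by cocaine). The ribosomal covariate gave 0.011 (estradiol against placebo, cocaine), 0.0317 (estradiol against intact, cocaine) and 0.0736 (estradiol by cocaine), and the length covariate gave 0.0387 and -0.23 (placebo against intact, saline and cocaine), -0.0499 (estradiol against intact, cocaine) and 0.0889 (estradiol by cocaine). For estradiol by cocaine, array weights gave 0.10 and leaving out the 4 libraries 0.0771. The cause was not tested. Depth is unknown, so its limit on low genes is not given.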
